A study of Mus musculus with 4 samples.

Results

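Cdx2, Tead4, Hand1, Gata2, Gata3, Esx1, Plac1 and Tfap2a are transcription factors and markers of mouse trophoblast, the extraembryonic lineage that builds the placenta. They are 8 of the 32970 genes or transcripts on the array, and they were taken as every probe, other than control spots, whose RefSeq accession belongs to 1 of these genes, whatever its signal. The 8 genes are read by 10 probes, with 2 probes each for Gata2 and Tfap2a and 1 for each other gene. All 10 probes were followed in the 8 channels of 4 Agilent mouse arrays, each of which was read in both Cy3 and Cy5.

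The cells were D3, an established mouse embryonic stem cell line, and differentiated in serum medium without LIF, the cytokine that keeps such cells undifferentiated. Silenced cells had received siRNA against Pnpla6, named siNTE in the labels after neuropathy target esterase, by lipid transfection (RNAiMAX), and were grown as embryoid bodies. Control cells were of the same line in the same differentiation medium, and the labels do not say what they received in place of that siRNA. Sampling at 24 h and 96 h gives 4 RNA groups: control and silenced cells at 24 h, and control and silenced cells at 96 h. Each time has 2 arrays, and each array carries silenced against control RNA. Replicate 1 of each time has the control RNA in Cy5, and replicate 2 the silenced RNA. Whether replicates are separate cultures is not given in the labels, so the p-values may measure technical spread alone. Silencing by siRNA is transient, and all groups come from 1 cell line.

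In the mouse embryo the trophectoderm is the outer layer of the blastocyst, set apart early from the inner cell mass, from which embryonic stem cells are derived. Tead4 and its coactivator Yap1 switch on Cdx2 and Gata3 in the outer cells, and Cdx2 works with Eomes, Elf5 and Tfap2c to keep trophoblast stem cells dividing. Hand1 drives the trophoblast giant cell fate, Gata2 and Gata3 act on giant cell hormone genes, and Esx1 and Plac1 are X-linked genes needed for normal growth of the placenta. Most of these genes also have roles outside trophoblast: Cdx2 in the posterior body and gut, Hand1 in extraembryonic and lateral mesoderm and the heart, Gata2 in blood and endothelium, and Tfap2a in surface ectoderm and neural crest. A change of 1 of them is therefore not by itself a change of trophoblast.

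The promoters of Esx1 and Cdx2 are shown because Esx1 rose with time and was the only gene called between silenced and control cells, while Cdx2 fell to the background. They are the 250 bases before the start site in RefSeq's table for GRCm38.p6, which holds promoters for 6 of the 8 genes and not for Tead4 and Hand1. The array files use another build, so no probe coordinates are given. Esx1 lies at chrX:137120327-137120576 on the minus strand and Cdx2 at chr5:147307250-147307499 on the minus strand. Capitals mark matches to the motifs searched.
Esx1: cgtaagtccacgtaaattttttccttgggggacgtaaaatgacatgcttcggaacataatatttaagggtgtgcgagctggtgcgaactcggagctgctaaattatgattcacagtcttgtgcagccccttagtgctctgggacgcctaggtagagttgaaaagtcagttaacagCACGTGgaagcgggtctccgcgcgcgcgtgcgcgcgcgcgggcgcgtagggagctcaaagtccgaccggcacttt
Cdx2: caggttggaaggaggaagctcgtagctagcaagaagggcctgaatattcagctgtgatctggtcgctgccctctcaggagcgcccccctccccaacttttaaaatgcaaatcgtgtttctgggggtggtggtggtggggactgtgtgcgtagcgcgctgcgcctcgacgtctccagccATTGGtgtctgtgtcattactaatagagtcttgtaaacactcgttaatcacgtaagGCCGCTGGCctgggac

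Both strands were searched for the TATA box (TATAAA), a homeodomain core (TAATTA), CDX (TTTATNG), the site of GATA factors (AGATAA), TEAD (GGAATG), AP-2 (GCCNNNGGC), the E-box CACGTG and the CCAAT box (CCAAT). The Esx1 window held the E-box at position −75 from the start site and none of the other 7 motifs; 6.02% of the 32851 promoter windows of that length hold this E-box. The Cdx2 window held an AP-2 match at position −16, as 13.7% of all windows do, and a CCAAT box on the other strand at position −72, as 33.8% do. The CDX, GATA and TEAD letters were in neither window, and 9.81%, 9.99% and 12.6% of all windows hold them. No match overlaps another in these windows, and a match describes letters only.

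Across the arrays 62.5% to 68.7% of the 43379 spots other than controls were well above background in each channel, and no spot was saturated. Pnpla6 itself stood at 54.9% of the control level at 24 h (log2 −0.87, SE 0.06, limma adjusted p = 2.6e-11) and at 101% at 96 h (log2 0.01, limma adjusted p = 0.96). The 11 markers of undifferentiated embryonic stem cells were well above background on both arrays of every group. Replicate 2 of 96 h was the only array on slide 2; the other 3 shared slide 1.

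Detection separated the 8 genes before any test. Tead4, Esx1 and the tested Tfap2a probe were well above background in all 8 channels. Cdx2 was well above background in all 4 channels at 24 h and in none at 96 h. Hand1 and both Gata2 probes were measured on both arrays of both groups at 96 h but on at most 1 array of a group at 24 h. Gata3 and Plac1 were not well above background in any of the 8 channels. Testing required a probe well above background on both arrays of some RNA group, a rule met by 8 of the 10 probes and 6 of the 8 genes. Since passing at 1 time lets in genes that are dim at the other, the tested genes are not a fair sample of all 8.

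**Figure D1:**
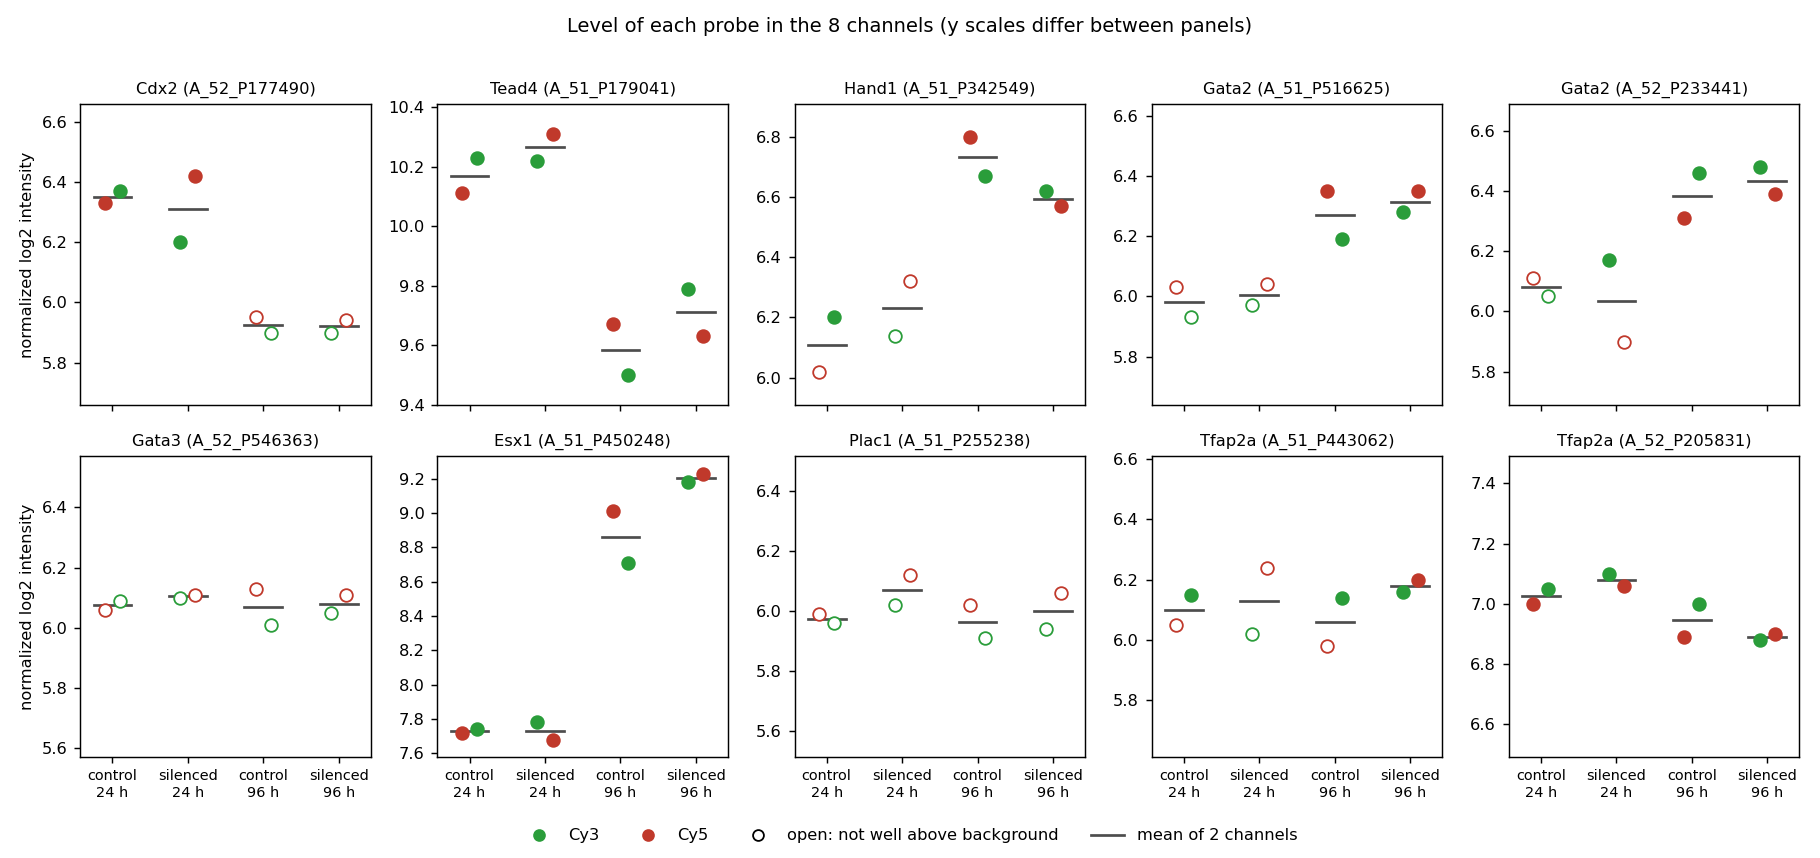
Normalized log2 intensity (vertical axis, arbitrary units, a separate scale in each panel) of each of the 10 probes in the 8 channels, by RNA group (horizontal axis); green points are Cy3, red points Cy5, open points were not well above background and lines are means of 2 channels. Esx1 rises from 24 h to 96 h in both control and silenced cells, Cdx2 falls to open points, and Gata3 and Plac1 have open points only.

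Tead4 is the TEF-family factor at the head of the trophectoderm programme. Its normalized log2 intensity in control cells was 10.11 and 10.23 at 24 h and 9.67 and 9.50 at 96 h. In silenced cells it was 10.22 and 10.31 at 24 h and 9.79 and 9.63 at 96 h. All 4 values of 24 h lay above all 4 of 96 h. Across arrays the values of silenced and control cells overlapped at both times. Within each array the silenced value was the higher, by 0.12 and 0.08 at 24 h and 0.11 and 0.13 at 96 h.

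Cdx2, the homeodomain factor that specifies trophectoderm and later the posterior body, was dim. Its signal over local background was 16.5 to 27 units in control cells and 11.5 to 29 in silenced cells at 24 h. At 96 h it was 3.5 on both arrays of control cells and 2 to 3 in silenced cells, not well above background on any array. The normalized log2 intensity was 6.33 and 6.37 in control cells and 6.20 and 6.42 in silenced cells at 24 h, against 5.90 to 5.95 in all 4 channels at 96 h. The times did not overlap, and at 24 h the control values lay inside the range of the silenced ones. An offset of 50 added to every signal holds such dim probes near a floor, so log2 differences of Cdx2, Hand1 and Gata2 are compressed.

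Gata3, a GATA factor of the trophectoderm, had 7 to 15 units over local background across the 8 channels, and its normalized log2 intensity ran from 6.01 to 6.13. Those 8 values carry no order between groups. Its paralog Gata2 was read by 2 probes that gave the same picture. The probe tested, A_52_P233441, had log2 intensities of 6.11 and 6.05 in control and 6.17 and 5.90 in silenced cells at 24 h, of which 1 channel was well above background. At 96 h it had 6.31 and 6.46 in control and 6.48 and 6.39 in silenced cells, all well above background. The other probe, A_51_P516625, ran from 5.93 to 6.04 in the 4 channels of 24 h, none well above background, and from 6.19 to 6.35 in those of 96 h.

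Hand1, the bHLH factor of giant cells and extraembryonic mesoderm, had log2 intensities of 6.02 and 6.20 in control and 6.14 and 6.32 in silenced cells at 24 h. Only the channel at 6.20 was well above background. At 96 h it reached 6.80 and 6.67 in control and 6.62 and 6.57 in silenced cells, and at that time both control values lay above both silenced values. In units over local background the 96 h values were 38.5 to 71 in control and 35.5 to 51.5 in silenced cells.

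Esx1, an X-linked homeodomain factor of labyrinth trophoblast, had log2 intensities of 7.72 and 7.74 in control and 7.78 and 7.68 in silenced cells at 24 h. At 96 h it stood at 9.01 and 8.71 in control and 9.18 and 9.23 in silenced cells. All 4 values of 96 h lay above all 4 of 24 h, and at 96 h both silenced values lay above both control values. At 96 h the mean ± SD was 8.86 ± 0.21 in control and 9.20 ± 0.03 in silenced cells (n = 2 each).

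Plac1, an X-linked gene of trophoblast cells, had 2.5 to 12 units over local background and log2 intensities from 5.91 to 6.12, with no channel well above background. Tfap2a encodes AP-2 alpha, a factor of surface ectoderm, neural crest and trophoblast. The probe tested, A_52_P205831, was well above background in all 8 channels, at 7.0 and 7.05 in control and 7.10 and 7.06 in silenced cells at 24 h. At 96 h the same probe had 6.89 and 7.0 in control and 6.88 and 6.90 in silenced cells. The control value of 7.0 at 96 h met the lowest value of 24 h, so the times touched in control cells and were apart in silenced cells. The other probe, A_51_P443062, was well above background in 4 of 8 channels and ran from 5.98 to 6.24.

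The first comparison asked whether lowering Pnpla6 moved these genes at 24 h, when its own transcript was low. None of the 6 tested genes passed the threshold (Benjamini-Hochberg adjusted p under 0.05 over all 21754 genes tested by limma), and at an unadjusted p under 0.05 the count was also 0. Across all genes 81, or 0.372%, changed. Tead4 differed by 0.10 (log2 silenced over control, limma adjusted p = 0.81) and Hand1 by 0.12 (limma adjusted p = 0.70). Esx1 was at 0.00 with a 95% interval from −0.14 to 0.14. For the other 3 the estimates ran from −0.04 to 0.05. The median of the 6 was 0.03, against 0.00 over all genes.

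At 96 h Esx1 was higher in silenced than in control cells and no other of the 6 tested genes passed. The log2 ratio of Esx1 was 0.17 on replicate 1 and 0.52 on replicate 2, and its mean of 0.35 (SE 0.07, n = 2 arrays, limma adjusted p = 0.00036) is 1.27-fold. So 1 of 6 was called, beside 13.4% of all genes (6.61% higher and 6.80% lower), which is a share near that background. The difference between the times was itself 0.35 for Esx1 (SE 0.10, limma adjusted p = 0.021), 1 of 6 genes against 6.92% of all genes (2.83% with a higher and 4.10% with a lower difference).

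The Esx1 call rests on the settings of the fit. It kept its direction throughout, but the larger ratio came from the array alone on slide 2: without 96 h replicate 2, that is within slide 1, it was 0.17 (limma adjusted p = 0.83), and without 96 h replicate 1 it was 0.52 (limma adjusted p = 0.30). It was 0.35 with a limma adjusted p of 0.36 without 24 h replicate 1, and the same without 24 h replicate 2. With no term for dye orientation, which is also the replicate block, it was 0.35 (limma adjusted p = 0.29), with an offset of 16 it was 0.37 (limma adjusted p = 0.084), and with the authors' deposited log ratios it was 0.42 (limma adjusted p = 0.29). The call for the difference between the times was lost under the same settings, at 0.17 to 0.52 with 1 array left out, and with all probes of a gene averaged (0.35, limma adjusted p = 0.084).

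Hand1 was below 0 on both arrays at 96 h and did not pass. Its ratio was −0.18 on replicate 1 and −0.10 on replicate 2, a mean of −0.14 with a 95% interval from −0.26 to −0.01 (limma adjusted p = 0.15), and the difference from 24 h was −0.26 (limma adjusted p = 0.075). Tead4 gave 0.11 and 0.13 on the 2 arrays, a mean of 0.12 with an interval from −0.01 to 0.25 (limma adjusted p = 0.23). Gata2 was at 0.05 and Tfap2a at −0.06, with signs or sizes that differed between arrays. The other Tfap2a probe, dimmer and not tested, had a mean ratio of 0.12. Cdx2 was at 0.00, but neither group was well above background at 96 h, so this value says nothing of its level. The intervals do not show that silencing left these genes alike, since each still allows a difference of 0.12 or more in 1 direction. The median of the 6 was 0.02, against 0.00 over all genes.

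**Figure D2:**
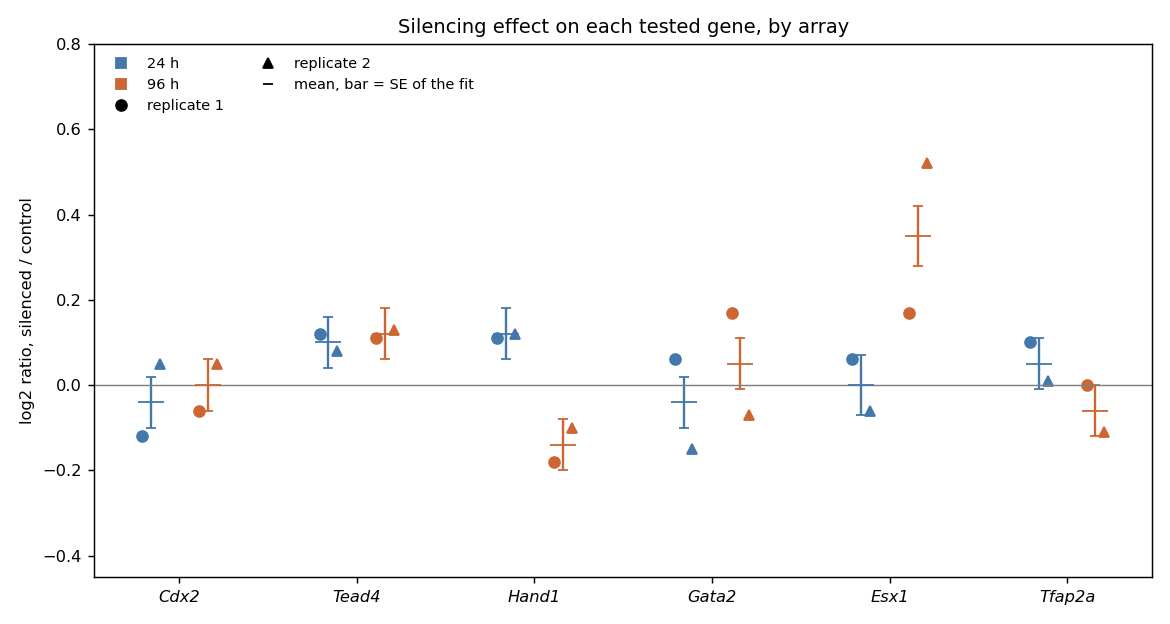
Log2 ratio of silenced to control cells (vertical axis) for each of the 6 tested genes (horizontal axis), with blue for 24 h and orange for 96 h, circles for replicate 1, triangles for replicate 2 and bars for the mean with the SE of the fit. Esx1 at 96 h stands apart at 0.35, with 0.17 on replicate 1 and 0.52 on replicate 2, and the other means lie between −0.14 and 0.12.

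The next comparison asked how the genes changed from 24 h to 96 h of differentiation. Both in control and in silenced cells 5 of the 6 tested genes changed: Esx1, Hand1 and Gata2 were higher at 96 h, and Tead4 and Cdx2 were lower. Hand1 and Gata2 met the rule for testing at 96 h alone, Cdx2 at 24 h alone, and Gata3 and Plac1 at neither time. The count of 5 thus comes partly from genes let in by the time at which they are high. Beside the share of all genes, it does not stand for the whole set of trophoblast genes. Of all genes 36.2% changed in control cells (19.4% higher and 16.8% lower) and 37.2% in silenced cells (19.6% higher and 17.6% lower). No array carries RNA of both times, so these differences set channels of different arrays against each other. The RNA is of whole cultures, so fewer cells of a type and less RNA per cell cannot be told apart.

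Esx1 rose by 1.13 in control cells on the log2 scale (SE 0.21, n = 2, limma adjusted p = 0.0046), or 2.19-fold. In silenced cells it rose by 1.48 (SE 0.21, n = 2, limma adjusted p = 0.0013), or 2.78-fold. Over the other settings tried the rise ran from 0.95 to 1.45 in control and from 1.34 to 1.90 in silenced cells and passed in all of them. Within slide 1 the rise was 1.31 in control and 1.42 in silenced cells.

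Hand1 was 0.62 higher in control cells on the log2 scale (SE 0.10, limma adjusted p = 0.0028) and 0.36 higher in silenced cells (limma adjusted p = 0.027). At 24 h it was above background on 1 of 2 control arrays and on no silenced array. In silenced cells the rise was therefore set against a floor, which gave 1.29-fold on the scale with the offset. Such a value compares the mean of the bright group with the floor. The floor is the dim group's own signal or, where that is higher, the lowest signal well above background on its array. Gata2 was 0.30 higher in control cells (limma adjusted p = 0.041) and 0.40 higher in silenced cells (limma adjusted p = 0.014). Against the floor it was 1.23-fold higher in control cells. Its second probe gave 1.21-fold in control and 1.24-fold in silenced cells by the same comparison. These floor values leave out the spread between arrays and are not lower limits. The interval of the fit started at 0.12 on the log2 scale for Hand1 in silenced cells and at 0.08 for Gata2 in control cells. Within slide 1, that is without 96 h replicate 2, Hand1 rose by 0.68 in control and 0.39 in silenced cells, while the Gata2 rise in control cells was 0.28 and did not pass (limma adjusted p = 0.053).

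Tead4 was lower at 96 h by a log2 difference of −0.58 in control cells (SE 0.10, limma adjusted p = 0.0035) and −0.56 in silenced cells (limma adjusted p = 0.0040), which left 66.9% and 67.9% of the 24 h level. Between settings it ran from −0.68 to −0.49 over both groups, and within slide 1 it was −0.49 in each. Cdx2 was lower by −0.42 in control cells (SE 0.10, limma adjusted p = 0.011) and −0.39 in silenced cells (limma adjusted p = 0.015). Within slide 1 the Cdx2 values were −0.44 and −0.37. Since it was not measured at 96 h, Cdx2 was set against the same kind of floor. By that it was 1.31-fold lower in control and 1.27-fold lower in silenced cells, with the spread between arrays left out. Tfap2a differed by −0.08 in control cells (95% interval −0.28 to 0.12, limma adjusted p = 0.52) and by −0.19 in silenced cells (−0.39 to 0.01, limma adjusted p = 0.12). The second value passed with the replicate block (−0.19, limma adjusted p = 0.036) and with the authors' processed signals (−0.44, limma adjusted p = 0.025). The other Tfap2a probe, dimmer and not tested, had changes of −0.04 in control and 0.05 in silenced cells.

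The size of the change of the 3 dim genes depends on the background correction. With the authors' deposited processed signals, which carry no offset, Cdx2 differed by −3.04 in both control and silenced cells, Hand1 by 2.06 and 1.91, and Gata2 by 1.96 and 1.59, all past the threshold in limma. With an offset of 16 Cdx2 differed by −0.82 and −0.76, Hand1 by 1.05 and 0.61, and Gata2 by 0.55 and 0.74. So the direction is the same in each and the fold of these 3 genes is not settled.

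**Figure D3:**
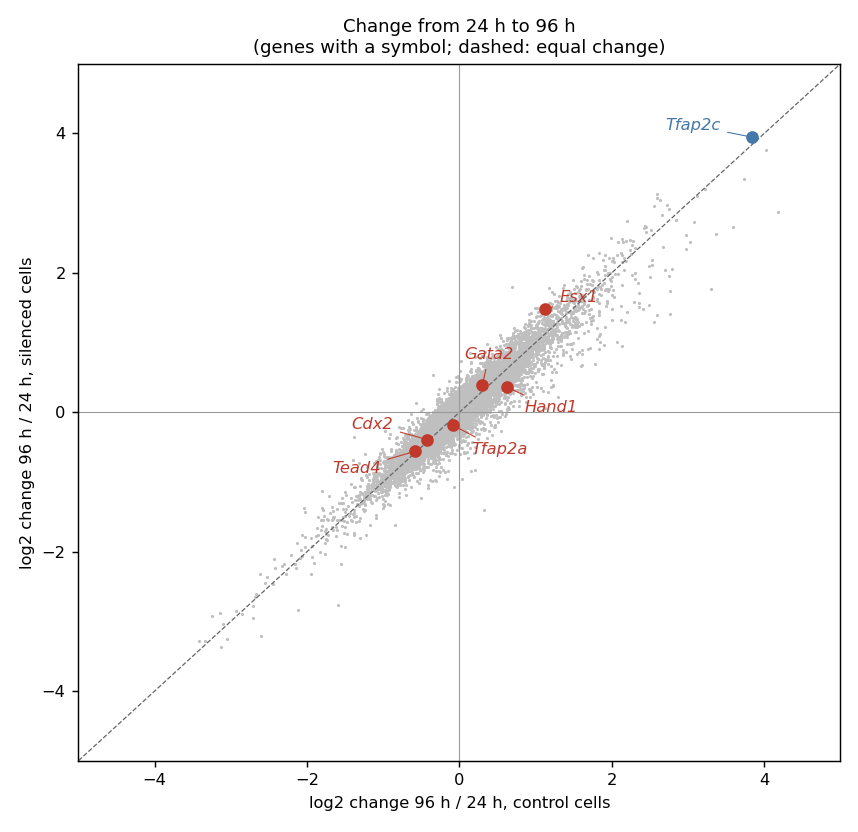
Log2 change from 24 h to 96 h in control cells (horizontal axis) and in silenced cells (vertical axis) of all tested genes with a symbol (grey), the 6 tested trophoblast genes (red) and Tfap2c (blue); the dashed line marks equal change. Esx1 (1.13 and 1.48), Hand1 and Gata2 lie at the upper right, Tead4 and Cdx2 in the lower left, and Tfap2c lies far out at 3.84 and 3.95.

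The paralogs and partners of the 8 genes moved in their own ways. Tfap2c, which encodes AP-2 gamma and maintains trophoblast stem cells, rose by 3.84 on the log2 scale in control cells (SE 0.09, limma adjusted p = 2.6e-06) and by 3.95 in silenced cells (limma adjusted p = 3e-06), and did not pass between silenced and control cells at 96 h (0.09, limma adjusted p = 0.41). It is also a gene of surface ectoderm and germ cells. Eomes, the T-box partner of Cdx2, rose by 0.26 in control cells (limma adjusted p = 0.048), a call lost with quantile normalization (0.26, limma adjusted p = 0.052) and without 96 h replicate 2 (0.24, limma adjusted p = 0.055), and was 0.10 higher in silenced cells (limma adjusted p = 0.39). Tead2, the TEAD factor of early embryos, rose by 0.77 in control and 0.68 in silenced cells, while Tead4 fell. A second Tead2 probe, well above background in every group and not tested, had changes of 0.28 and 0.37.

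By the probe tested for each, Tead1 and Tead3 did not pass in any comparison, and neither did Gata1, Gata4, Gata6 or Hand2. Another Gata6 probe, A_51_P411917, was above background on 1 array of each group at 24 h and on both at 96 h, with log2 changes over time of 0.50 in control and 0.65 in silenced cells that were not tested. Tead1, at 0.27 in control cells over time, had a limma adjusted p of 0.41, and Hand2, at 0.06, had 0.78. Cdx1, a paralog of Cdx2 in the primitive streak, was lower in silenced cells at 96 h (−0.20, limma adjusted p = 0.032), where it was well above background on 1 of 2 arrays. That call was lost in 9 of 10 other settings, in which the value ran from −1.35 with the authors' log ratios to −0.14 without 96 h replicate 2. Cdx4 was above background on 1 of 2 arrays of each group at 24 h and on none at 96 h, and was not tested. Elf5, whose promoter is a known methylation gate between the embryonic and trophoblast lineages, was not above background in any channel.

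Other regulators of trophoblast stem cells and trophectoderm showed no shared direction. The list names 25 genes, of which the array reads 22 and 20 could be tested. From 24 h to 96 h in control cells 6 were higher and 7 lower, beside 19.4% and 16.8% of all genes. The median log2 change was −0.01 against 0.00 over all genes. In silenced cells 5 were higher and 6 lower, beside 19.6% and 17.6% of all genes. Amot, a scaffold of the Hippo pathway that restrains Yap1, rose by 2.12 in control and 1.52 in silenced cells. Klf5, a factor shared by stem cells and trophectoderm, fell by 1.67 and 1.54 on the log2 scale, and Bmp4, a secreted signal that induces mesoderm, fell by 1.65 in control cells. The summed normalized intensity of the 22 genes ran from 51200 to 54300 in control cells and from 52200 to 53200 in silenced cells at 24 h. At 96 h it ran from 42200 to 44500 in control and from 48100 to 50500 in silenced cells. This sum, like those of the other lists, weighs its brightest genes most. At 96 h these were Zfp42 (mean log2 intensity 13.86 in control and 14.16 in silenced cells) and Esrrb (12.85 and 13.23). Zfp42 is also on the list of undifferentiated embryonic stem cell markers.

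Between silenced and control cells at 96 h, 3 of these 20 regulators were higher and 3 lower. Amot was lower by −0.64, at −0.64 and −0.63 on the arrays (limma adjusted p = 1.3e-09). Esrrb, an orphan receptor of embryonic and trophoblast stem cells, was higher by 0.37 (limma adjusted p = 4.4e-05). Beside these 6 of 20, 13.4% of all genes were called. At 24 h none of the 20 passed in limma.

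Markers of giant cells, spongiotrophoblast and labyrinth included genes that rose and genes that fell with time. The list names 43 genes, 40 of them on the array and 29 tested. From 24 h to 96 h 14 were higher and 3 lower in control cells, with a median of 0.37, beside 19.4% and 16.8% of all genes. In silenced cells 14 were higher and 5 lower, with a median of 0.26, beside 19.6% and 17.6% of all genes. In control cells all 29 were well above background on both arrays at 96 h but 23 at 24 h, so the filter let in members through the time at which they are high, and these counts and medians do not stand for the 43. The same filter was used for the other lists, of which those with members dim at one time share the limit. The genes that rose furthest are also expressed outside trophoblast. Krt18, a keratin of simple epithelia, rose by 4.02 in control and 3.76 in silenced cells, Sct, which encodes secretin, by 1.97 and 2.22, and Rhox9, an X-linked homeobox gene of placenta and germ cells, by 1.89 and 2.04. Rhox9 has close copies, and binding of their RNA to its probe was not tested. The summed normalized intensity of the 40 genes went from 36400 to 37900 in control cells at 24 h to 88500 to 93100 at 96 h. Such a sum weighs its brightest genes most and does not stand for the list. At 96 h these were Slc2a3 (mean log2 intensity 14.4 at 24 h and 15.2 at 96 h in control cells) and Krt18 (10.99 and 15.01).

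Between silenced and control cells at 96 h, 5 of the 29 placental markers were higher and 7 lower, with a median of −0.04, where 6.61% of all genes were higher and 6.80% lower. Krt8, the partner of Krt18, was lower by −0.78 (limma adjusted p = 2e-11), and Krt18 by −0.22 (limma adjusted p = 0.013), a call that 8 of 10 other settings lost, as 4 of 10 did for Krt8. Peg10, an imprinted gene derived from a retrotransposon and needed for the placenta, was at −0.94 on replicate 1 and −0.34 on replicate 2 (limma adjusted p = 7.6e-07). Plet1, a marker of extraembryonic ectoderm, was higher by 0.53 (limma adjusted p = 7.8e-08). A second Plet1 probe, well above background in every group and not tested, had a mean ratio of 0.29.

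From these lists and those that follow, with markers of undifferentiated embryonic stem cells, endoderm and fibroblasts left aside, 18 named genes were called at 96 h. Under the alternative settings they kept their direction but not always the call. With the authors' log ratios, without 96 h replicate 1 and without 96 h replicate 2 each of the 18 lost it, and with no replicate block 3 kept it. Without 24 h replicate 1 or without 24 h replicate 2, 4 kept it, and with an offset of 16, 12 kept it. With median centring 16 kept it, with averaged probes 17 and with no filter 18.

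Markers that define trophoblast stayed mostly unmeasured. Of 10 such genes 8 were on the array, and 3 were well above background on both arrays of control cells at 24 h and at 96 h, 3 in silenced cells at 24 h and 2 at 96 h. Elf5, the spongiotrophoblast gene Tpbpa, the sinusoidal giant cell protease Ctsq and the syncytin Synb were above background nowhere. Gcm1, a factor of the labyrinth, was above background on both arrays of control cells at 96 h and on none of silenced cells, with a log2 difference of −0.06 (limma adjusted p = 0.60). Of the 4 tested genes of this list 2 rose and 1 fell in control cells, and 1 rose and 1 fell in silenced cells. The one that fell in both was Cdx2, itself among the 8 genes followed here and let in by its signal at 24 h alone. That fall is the one given above and adds nothing to it. Of all genes 36.2% and 37.2% changed over time in control and silenced cells. None of the 4 passed between silenced and control cells at 96 h in limma, with a median of 0.00. The summed intensity of the 8 genes was 826 to 836 at 24 h and 4850 to 5450 at 96 h over control and silenced cells. Of the tested genes in that sum Tfap2c rose furthest, and Eomes in control cells, with the call that 2 settings lost, was the only other called higher. Tfap2c was also the brightest at both times, at mean log2 intensities of 8.33 and 12.16 in control cells, against 6.83 and 7.09 for Eomes. The sum therefore follows Tfap2c and does not stand for the list.

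**Figure D4:**
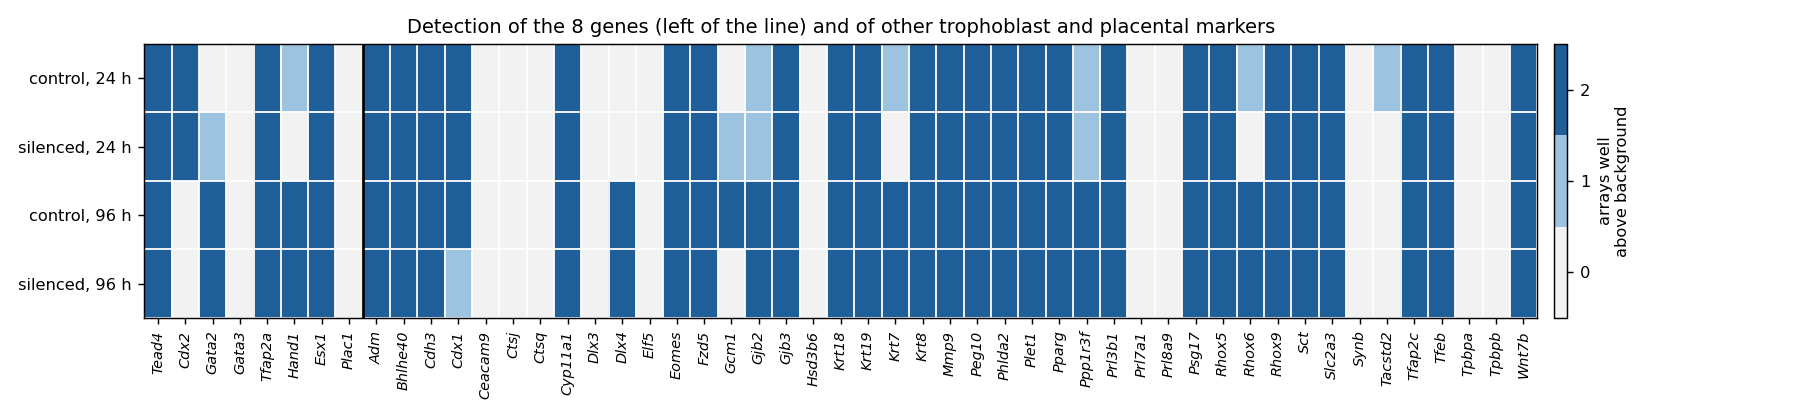
Number of arrays out of 2 (colour scale) on which each gene (horizontal axis) was well above background in each RNA group (vertical axis), for the 8 genes left of the line and 43 other trophoblast and placental markers right of it. Gata3, Plac1, Elf5, Tpbpa, Ctsq and Synb are at 0 in every group, and Cdx2 is at 2 in both groups at 24 h and at 0 at 96 h.

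Lists for the other tissues in which these 8 genes act were described beside them, and whether such cells had a part in the changes was not tested. The counts of this and the following lists stand beside these shares of all genes. Over time 19.4% were higher and 16.8% lower in control cells, and 19.6% and 17.6% in silenced cells. Between silenced and control cells at 96 h 6.61% were higher and 6.80% lower. Of the extraembryonic, lateral and cardiac mesoderm list, where Hand1 acts, 4 of 19 tested genes were higher at 96 h and 3 lower in control cells, and 1 and 3 in silenced cells (medians 0.00 and 0.03, against 0.00 and −0.01 over all genes). Its summed intensity was 14300 to 14700 at 24 h and 9800 to 10200 at 96 h in control cells. Kdr, a receptor of mesoderm and vessels, was well above background on both arrays of each group at 24 h, on no control array at 96 h and on 1 silenced array. It was lower over time (limma adjusted p = 0.00063 in control and 0.0011 in silenced cells), by a size that is not settled, from −2.89 to −0.71 in control cells between settings. Between silenced and control cells at 96 h, 3 were higher, among them the T-box factor Tbx3 (0.36) and the atrial myosin gene Myl7 (0.29), and 1 was lower, the growth factor gene Fgf8 (−0.32, and −0.63 with the authors' log ratios).

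For the posterior body and streak, where Cdx2 acts later, 4 of 8 tested genes rose in control cells over time, 3 rose in silenced cells and none fell (medians 0.29 and 0.17). Wnt3, which starts the streak, rose by 1.21 in control and 0.66 in silenced cells, and by 3.36 and 2.68 with the authors' processed signals, so its fold is not settled either. It was lower in silenced cells at 96 h by −0.64 (limma adjusted p = 1.3e-09), or −1.06 with the authors' log ratios. Besides Wnt3, Fgf8 and Cdx1 were also lower there, 3 of 8, and 0 were higher, beside 6.80% and 6.61% of all genes. The summed intensity of the 14 genes was 1300 to 1340 at 24 h and 1680 to 1760 at 96 h in control cells. For surface ectoderm and neural crest, where Tfap2a acts, 4 of 15 tested genes rose and 3 fell in control cells over time, with a median of −0.04. Foxd3, a neural crest and stem cell factor, was at −1.62. The summed intensity of that list was 8980 to 9490 at 24 h and 45800 to 46200 at 96 h in control cells, and Krt18 and Tfap2c had the furthest rises in it.

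For blood and endothelium, where Gata2 acts, 2 of 10 tested genes rose and 4 fell in control cells over time, and 3 rose and 4 fell in silenced cells (medians −0.23 and −0.17). Zfpm1, the GATA cofactor Fog1, rose by 2.08 in control and 2.44 in silenced cells. At 96 h 4 of the 10 were higher in silenced cells, among them Zfpm1 (0.31) and the receptor gene Kit (0.31), and 1 was lower, the endothelial factor Etv2 (−0.36, and −0.60 with the authors' log ratios). The summed intensity of this list was 2620 to 2680 at 24 h and 4570 to 4750 at 96 h in control cells, against 5290 to 5750 in silenced cells at 96 h. Zfpm1 was its brightest gene, at mean log2 intensities of 9.39 and 11.48 in control cells and 11.79 in silenced cells at 96 h. The sum does not stand for the list. Of the BMP response genes 1 rose and 3 of 10 fell in control cells over time, with a median of −0.20. At 96 h 1 of the 10 was higher in silenced cells and 3 lower, where 6.61% of all genes were higher and 6.80% lower. Id1 and Id3, direct targets of BMP signals, were lower by −0.63 and −0.60, while Id4, named after its value was seen, was higher by 0.30 (limma adjusted p = 0.00072).

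Markers of undifferentiated stem cells and of other cells that such cultures could hold were read beside these lists. Their part in the changes of the 8 genes was not tested. Of the 11 stem cell markers 1 was higher in silenced cells at 24 h, Pou5f1 (0.68, with 1.58 and −0.21 on the arrays). At 96 h 5 were higher and 1 lower, Pou5f1 (−1.05, with 0.01 and −2.11 on the arrays). Of all genes 0.234% were higher and 0.138% lower at 24 h, and 6.61% and 6.80% at 96 h. Of 13 tested markers of visceral and parietal endoderm 5 rose and 1 fell over time in control cells, and 5 and 1 in silenced cells. Among those that rose, Cubn was at 0.69 in control and 1.79 in silenced cells, Amn at 0.75 and 1.1, and Dab2 at 1.12 and 1.08. Lama1 was at −1.11 and −1.05. At 96 h 3 of the 13 were higher in silenced cells and 0 lower. These were Cubn (1.05, with 0.82 and 1.27 on the arrays), Col4a1 (0.33) and Amn (0.29). Ttr and Apoa1 were above background on no array. Calls of endoderm and fibroblast markers under the other settings are not given here. The summed intensity of the 15 endoderm markers was 10400 to 10600 at 24 h and 9390 to 9410 at 96 h in control cells, and 9880 to 11200 in silenced cells at 96 h. Of 7 tested fibroblast markers 5 rose and 1 fell over time in control cells, and 3 and 1 in silenced cells. Fbln2 rose by 1.9 in control and 2.26 in silenced cells and Cxcl12 by 1.83 and 1.1, while Vim was at −2.6 and −3.2. At 96 h 1 was higher and 5 were lower in silenced cells, with a median of −0.35. Fbln2 was higher by 0.47, and Cxcl12 (−0.71) and Vim (−0.52) were among the lower. A second Cxcl12 probe, above background on no array at 24 h and not tested, had a mean ratio of −0.12. The summed intensity of the 10 fibroblast markers was 5550 to 5810 in control and 5770 to 6020 in silenced cells at 24 h. It was 3650 to 3950 in control and 3250 to 3290 in silenced cells at 96 h. Vim was the brightest of them at 24 h (mean log2 intensity 11.87 at 24 h and 9.27 at 96 h in control cells). Col3a1, Lum and Postn were above background on no array.

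Genes with a course like that of each of the 6 tested genes were looked for as a description, by the distance between the 4 group means after centring, among 4351 or 4352 genes whose groups spanned at least 0.5 on the log2 scale. Closest to Esx1 were the chemokine gene Cxcl14 (distance 0.048) and the peptide hormone gene Pyy (0.060). Closest to Hand1 were Mycl (0.0092) and Ramp3 (0.034), and to Tead4 Mavs (0.014) and Bckdha (0.035). Closest to Cdx2 were Uqcrq (0.055) and Arl6 (0.057), and to Gata2 Txlnb (0.081) and Rcbtb1 (0.083). Tfap2a spanned only 0.19 itself, and the nearest genes to it, Ttc9c (0.25) and Rnd1 (0.26), lay farther off than for the other 5. Genes as flat as Tfap2a were left out of the search, so that distance follows from the cut. Cdx2 (0.43) and Gata2 (0.4) also spanned less than the cut, which limits their matches in the same way. Each likeness rests on 4 group means.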

How the data were processed

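RNA of silenced and control D3 cells was hybridised on 4 arrays with both dyes, 2 at each time. Spots were read by the authors in Agilent Feature Extraction; the version is 10.7.1.1 per the file headers and 10.7 per the submitters' processing notes. These notes also name limma, with no version. The deposited files give the median spot signal, the local background and the processed signal as intensity in arbitrary units, the processed one after background subtraction and dye normalization. The deposited log ratio is log10 of Cy5 over Cy3, and the authors' series table equals it, turned to silenced over control, within 4.97e-06. Per the file headers, flags for signals well above background, saturation and non-uniform spots are given as 0 or 1 per spot; 1 non-uniform spot was left out.

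From these, R 4.3.3 and limma 3.58.1 were used. Background was corrected with normexp (offset 50), ratios were normalized by loess with the 1639 control spots at weight 0, and spots of a probe were averaged. Of 41174 probes 28082 were well above background on both arrays of at least 1 RNA group, and the brightest probe of each of 21754 genes was tested. Symbols came from RefSeq accessions (24375 probes). Log2 ratios were fitted with a mean per time and a dye term. Dye orientation equals the replicate number, so that term is the replicate block; the deviations of replicate 1 at 24 h and 96 h correlated at 0.70 across genes. The labels do not say that a number marks a shared culture. It leaves 1 residual degree of freedom (prior 33.2). Changes over time came from single channels after Aquantile (lmscFit, dye term, intraspot correlation 0.896; 3 residual degrees of freedom, prior 4.57). Tests were two-sided with Benjamini-Hochberg adjustment over all genes and a threshold of 0.05. Scripts were tested on simulated data. The 2 arrays per time limit the precision.

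The 8 genes and the gene lists were chosen with earlier results of these data known. Named are all 8 genes, their fixed paralogs and partners, up to 3 genes of each list with the largest change past the threshold in a comparison, Pnpla6 and the 2 genes nearest in pattern; not every gene so chosen is printed. Gcm1, Id4 and the markers above background on no array were added after their values were seen. The alternatives were an offset of 16, the authors' values, median centring, quantile normalization, no dye term, a replicate block, no filter, averaged probes and each array left out.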

Additional observations from a re-analysis of the deposited data

Results flagged for a closer look

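For 15 genes named here, with markers of undifferentiated stem cells, endoderm and fibroblasts left aside, the silencing effect at 96 h differed from that at 24 h. The contrast of both times in limma gave this, and each value below is that log2 difference, 96 h minus 24 h. Groups of 2 arrays are too small for a test of single arrays against the rest. Esx1 was the only one among the 8 trophoblast genes, at 0.35 (limma adjusted p = 0.021), with 0.00 at 24 h and 0.35 at 96 h. Among regulators of trophoblast stem cells Amot was at −0.60, Esrrb at 0.34 and Sox21, a SOX factor of the early embryo, at 0.35. Among placental markers Krt8 was at −0.72, Peg10 at −0.67 and Plet1 at 0.38. Of the other lists Wnt3 was at −0.55, Tbx3 at 0.36, Myl7 at 0.32, Zfpm1 at 0.36, Kit at 0.33, Etv2 at −0.41, Id1 at −0.77 and Id3 at −0.73. Of the 15 differences 8 were above 0. All 15 calls were lost with any 1 array left out, with no replicate block and with the authors' log ratios.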

How the results depend on the processing

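The 24 h effect called 0 genes with an offset of 16, with the authors' log ratios and with no replicate block (1616, 1577 and 216 at an unadjusted p under 0.05 in limma), 42 with median centring, 9 with averaged probes and 0 to 0 with 1 array left out (193 to 296 unadjusted). The 96 h effect called 1016 genes with an offset of 16, 0 with the authors' log ratios (3853 unadjusted), 1798 with median centring (1126 higher and 672 lower, against 1438 and 1480), 106 with no replicate block and 29 to 114 with 1 array left out. The difference called 271 with an offset of 16, 0 with the authors' log ratios (2953 unadjusted) and with no replicate block (1297), 737 with median centring, 957 with averaged probes and 0 to 0 with 1 array left out (844 to 1084). Of the 6 trophoblast genes the 96 h effect called 0 with an offset of 16, the authors' log ratios, no replicate block (2, 0 and 1 unadjusted) and any 1 array left out, and the difference called 0 under these and with averaged probes. A replicate block raised the time courses to 12359 genes in control and 12558 in silenced cells, and of the trophoblast genes it changed only the Tfap2a call in silenced cells. With 1 array left out the time courses called 4 to 5 of the 6 in control and 5 to 5 in silenced cells.

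Signs turned only where nothing was called. At 24 h these were Esx1 (0 with an offset of 16, −0.03 with the authors' log ratios), Hand1 (−0.05) and Gata2 (0.32) with the authors' log ratios, and with 1 array left out Cdx2 (−0.12 to 0.05), Gata2 (−0.15 to 0.06) and Esx1 (−0.06 to 0.06). At 96 h these were Cdx2 (0) and Gata2 (−0.05) with the authors' log ratios, Tfap2a (0.03) with averaged probes, and with 1 array left out Cdx2 (−0.06 to 0.05) and Gata2 (−0.07 to 0.17). For the difference these were Gata2 (−0.36, authors' log ratios), Cdx2 (−0.01, median centring) and, with 1 array left out, Cdx2 (−0.06 to 0.12) and Gata2 (−0.03 to 0.21). The causes were not tested. Fits with 1 array left out have no dye term, and a lone array of a time is assumed to vary like the others. Of 1039 values of single genes under an alternative, 800 kept direction and call, 219 lost the call, 2 gained it and 18 turned. Dim signals limit Cdx2, Hand1, Gata2, Gata3 and Plac1, whose folds depend on the offset.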
